A study of Drosophila melanogaster with 3 samples.

Results

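The genes described here encode the subunits of the proteasome in Drosophila melanogaster. They were all protein-coding genes of the Ensembl annotation with a symbol of Prosalpha or Prosbeta (the core particle) or Rpn or Rpt (the cap, or regulatory particle) followed by a number. This gave 48 of 13986 protein-coding genes, of which 25 encode core and 23 encode cap subunits. By symbol, 32 were taken as the ubiquitous genes and 16 as testis-type paralogues, which carry a T or R after the subunit number. No expression was measured, so the classes rest on the symbols alone.

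The data are chromatin immunoprecipitation and sequencing (ChIP-seq) of the protein CG10431 in whole embryos of both sexes, aged 0 to 12 h. All samples came from 1 transgenic line that stably expresses CG10431 with green fluorescent protein at its C terminus, and they form 1 group of 3 biological replicates, with no second genotype, stage or treatment. The free-text label of every sample speaks of an input control, whereas the assay and antibody labels describe a ChIP of CG10431, and the values are given as ChIP on that basis. In whole embryos a site used in few cells and a site weakly occupied in many cannot be told apart, and the labelled stage could not be checked from peak positions.

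The proteasome degrades proteins that carry ubiquitin chains. Its core is a barrel of alpha and beta rings, with the proteolytic sites inside on beta subunits. The cap has a base, whose Rpt ATPases unfold substrates and whose Rpn members bind ubiquitin, and a lid of Rpn subunits that surrounds the enzyme that removes ubiquitin. Several fly subunits have a second gene copy used in the male germ line. In flies, the transcription factor Cap-n-collar, which works with maf-S and is held back by Keap1, is known to raise proteasome gene expression.

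The authors deposited a list of 30000 candidate entries for each replicate, a list of the same length called on the pooled replicates, and a list of 3314 pooled entries that passed an irreproducible discovery rate (IDR) analysis, which keeps entries that rank alike between replicates. By its label the pooled candidate list holds peaks and background as input for IDR, so a candidate may be background. Its lowest signal was 46.5. The −log10 q-value of the strongest pooled entry at a proteasome gene ran from 0.283 (Prosbeta2) to 3.02 (Rpn9). Each entry has a summit and a signal. The labels state no scale for the signal, so it was ranked only within a list. The IDR entries were the 3314 pooled entries of highest signal, with 186.7 as the lowest. Rank 3314 in a replicate's own list fell at a signal of 58.6, 81.4 and 63.9 in replicates 1, 2 and 3. Read depth is unknown.

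Few proteasome promoters carried a reproducible CG10431 peak, and those that did all belonged to the cap. An IDR summit lay within 500 bp of a transcript start at 4 of 48 genes, or 8.33%, against 14.8% of all protein-coding genes. All 4 encode lid subunits: Rpn9, Rpn5, Rpn6 and Rpn3. Weaker candidates were common, with a pooled candidate summit at 24 of 48 genes (against 46.7% of all protein-coding genes). Among genes with a pooled candidate, 16.7% of the proteasome genes and 31.7% of all protein-coding genes had an IDR summit. The members' share was thus below the background for IDR summits and near it for candidates, and no test was made on these counts.

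By count, core and cap genes parted in the strong entries more than in the weak ones. No core gene of 25 had an IDR summit, against 4 of 23 cap genes (17.4%), while pooled candidates lay at 11 core genes (44.0%) and 13 cap genes (56.5%). With the testis-type paralogues set aside, pooled candidates lay at 11 of 14 core genes (78.6%) and 12 of 18 cap genes (66.7%). The cap share of IDR summits was near the 14.8% of all genes, and the contrast rests on 4 genes and was not tested. Ubiquitous genes held all 4 IDR summits and 23 of the 24 pooled candidates (71.9% of 32 genes), and the 16 testis-type paralogues held 1 candidate (6.25%).

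**Figure D1:**
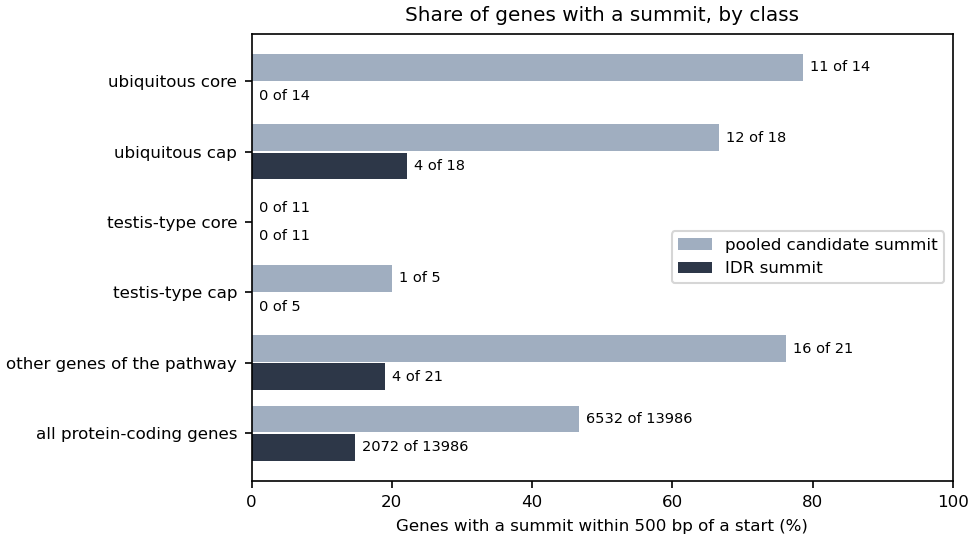
Share of genes, in percent, with a pooled candidate summit (light bars) or an IDR summit (dark bars) within 500 bp of a transcript start, by class, with counts beside the bars. The 11 of 14 ubiquitous core genes with a candidate include none with an IDR summit, and the testis-type classes lie far below all protein-coding genes for candidates.

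Each replicate alone gave a similar picture. Among the 3314 strongest entries of replicates 1, 2 and 3, a summit lay at 3, 6 and 4 members (6.25%, 12.5% and 8.33%), against 14.6%, 15.0% and 15.4% of all protein-coding genes. The mean was 4.33 ± 1.53 members (SD, n = 3). Cap genes gave 3, 4 and 3 of these and core genes 0, 2 and 1. A candidate was present in all 3 replicate lists at 15 members (31.2%, against 36.0% of all protein-coding genes). No candidate lay in any list at 14 of 48 members, beside 5427 of 13986 protein-coding genes.

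The members with IDR summits were of middling to low strength among the IDR peaks. Rpn9 (FBgn0028691), a scaffold subunit of the lid, spans 23731375 to 23733462 on the minus strand of arm 3R in dm6. Its pooled signal was 287.7, rank 1559, and its signals in replicates 1, 2 and 3 were 76.8, 97.2 and 123.8. All 3 lay above their replicate's signal at rank 3314, at a mean ratio of 1.48 ± 0.40 (SD, n = 3). Replicate 3 ranked it highest, at 813, against 2074 and 2414 in replicates 1 and 2.

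Rpn5 (FBgn0028690), another scaffold subunit of the lid, spans 5789493 to 5791569 on the plus strand of arm 3R. Its pooled signal was 272.5, rank 1746, and the replicates gave 100.04, 95.5 and 83.1, a mean ratio of 1.39 ± 0.28 (SD, n = 3). Rpn6 (FBgn0028689), which in yeast clamps the lid to the core, spans 14750166 to 14752910 on the minus strand of arm 2R, with a pooled signal of 240.5, rank 2150. The replicates gave 69.5, 95.5 and 86.0, a mean ratio of 1.24 ± 0.0965 (SD, n = 3). Like Rpn9, both genes lay among the 3314 strongest entries of every replicate.

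Rpn3 (FBgn0261396), a further lid scaffold subunit, spans 19051790 to 19053681 on the plus strand of arm 2L and was the weakest of the set. Its pooled signal of 201.5 stood 1.08 times above the lowest IDR signal, at rank 2911. The replicates gave 36.8, 98.6 and 55.4, at ranks 7121, 2354 and 4374. Replicate 2 alone placed it among its strongest entries, and the mean ratio was 0.902 ± 0.293 (SD, n = 3). In replicates 1 and 3 no candidate summit lay within 250 bp of the IDR summit. The values of those replicates, and so the mean ratio, rest on other entries near a Rpn3 start.

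**Figure D2:**
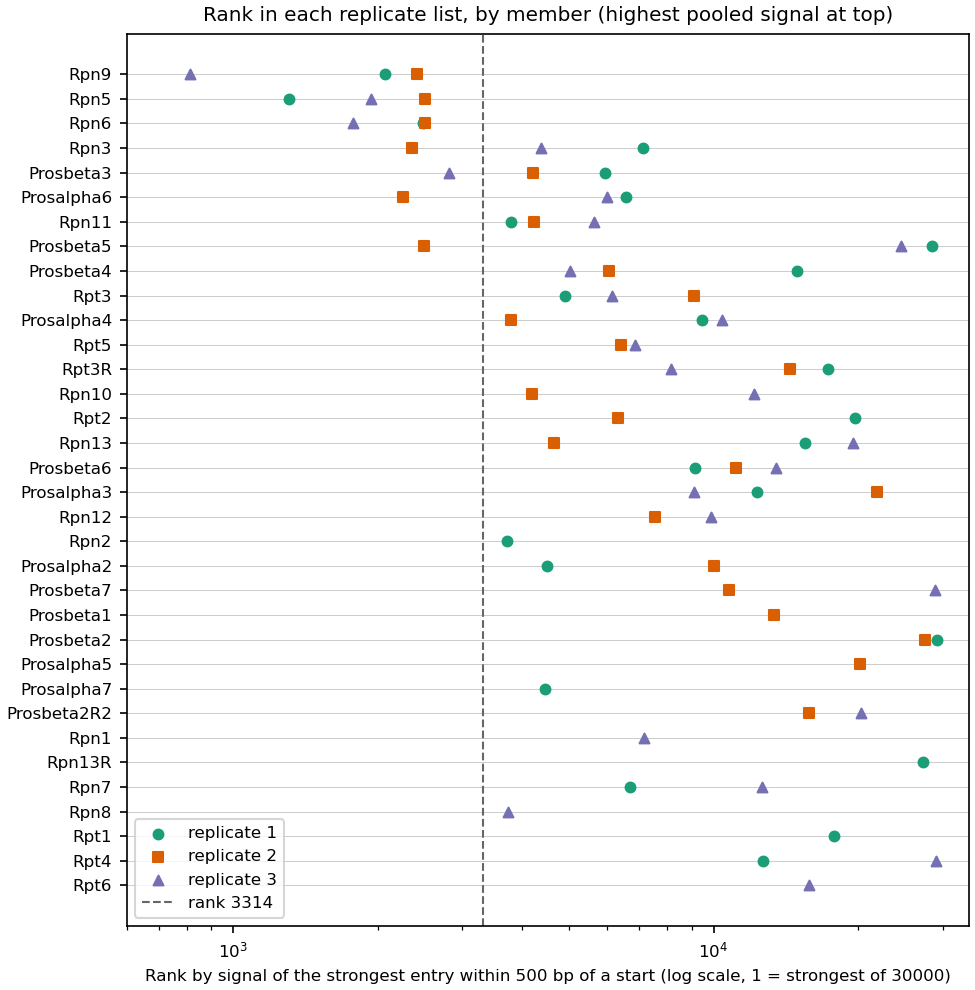
Rank by signal (log axis, 1 = strongest) of the strongest candidate entry within 500 bp of a start in each replicate's list, for the 34 members with a candidate in any replicate, ordered by pooled signal with those that have no pooled candidate last; the dashed line marks rank 3314. Rpn9, Rpn5 and Rpn6 lie on the strong side of the line in all 3 replicates, Rpn3 in replicate 2 only, and Prosbeta5 ranges from 2500 to 28458.

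The Rpn9 summit lay 198 bp inside the Rpn9 transcript, in its 5′ UTR, but nearer to the start of another gene. The peaks at Rpn5, Rpn6 and Rpn3 also lay close to the start of a second gene on the opposite strand. At Rpn5 the summit lay 145 bp upstream of the start and 36 bp inside Hat1, a histone acetyltransferase gene. The Rpn6 summit lay 98 bp upstream of the nearer of its starts, in an intron of the longer transcript, and 152 bp upstream of ave. At Rpn3 the summit was intergenic, 154 bp upstream of Rpn3 and 24 bp upstream of l(2)37Bb. At Rpn9, Rpn5 and Rpn3, 3 of the 4 IDR summits, the summit was nearer to another gene's start than to the lid gene's. These peaks therefore cannot be assigned to either gene of the pair.

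The sequence directly upstream of Rpn5 and Rpn3, beside or under the peak, is given 5′ to 3′ on the lid gene's strand from the RefSeq copy of dm6, outside annotated UTRs. Capitals mark a match to TATAAA in Rpn5 and an exact direct repeat in Rpn3. They are Rpn5 at chr3R:5789385-5789492 (plus strand) and Rpn3 at chr2L:19051613-19051789 (plus strand).
Rpn5: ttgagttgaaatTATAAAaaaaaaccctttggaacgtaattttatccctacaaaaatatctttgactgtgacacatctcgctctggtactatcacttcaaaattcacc
Rpn3: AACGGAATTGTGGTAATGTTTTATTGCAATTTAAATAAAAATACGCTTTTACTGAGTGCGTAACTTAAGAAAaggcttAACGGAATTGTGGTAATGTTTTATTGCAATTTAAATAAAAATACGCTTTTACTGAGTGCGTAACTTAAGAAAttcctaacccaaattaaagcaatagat
The Rpn3 stretch holds the same 72 bases at 19051613 to 19051684 and at 19051691 to 19051762, and the summit at 19051636 falls in the copy farther from Rpn3. Of the 31-base words within 500 bp of the Rpn3 start, 89.3% occur once in the genome. No label says how reads in the repeat were placed, and its part in the signal was not tested.

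The grouping by lid, base and ring was made after the values were seen. Of the 8 ubiquitous lid genes 4 had an IDR summit and 6 a pooled candidate, beside 14.8% and 46.7% of all protein-coding genes. A candidate lay at 6, 6 and 8 of them in replicates 1, 2 and 3, beside 48.5%, 47.7% and 49.2% of all protein-coding genes. Rpn11, which encodes the metalloprotease that removes ubiquitin chains, was the strongest cap gene outside the IDR list. Its pooled signal was 170.6, rank 3885, and its replicate signals were 53.6, 71.4 and 48.5, all under the signal at rank 3314 with a mean ratio of 0.85 ± 0.0817 (SD, n = 3). Its summit lay 284 bp upstream, with no other protein-coding start within 500 bp of the summit. Rpn12 ranked 12042. Rpn8, the partner of Rpn11, had a candidate in replicate 3 only, at rank 3740, and Rpn7 had candidates in replicates 1 and 3 at ranks 6714 and 12598.

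None of the 10 ubiquitous base genes had an IDR summit, beside 14.8% of all protein-coding genes, and this count was not tested. Rpt3, an ATPase of the base ring, had the highest signal among them, at 135.4 pooled and rank 5713. Its replicate signals were 46.1, 47 and 46.3, and its ranks 4899, 9090 and 6145. The pooled list also held the ATPase genes Rpt5 and Rpt2, at ranks 6163 and 9206. Rpt1, Rpt4 and Rpt6 had candidates in 1 or 2 of the replicate lists but none in the pooled list. Among the non-ATPase genes, the ubiquitin receptor genes Rpn10 and Rpn13 ranked 8721 and 9387 and Rpn2 ranked 13234, while Rpn1 had a candidate in replicate 3 only.

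Ubiquitous core genes mostly had candidates, but none above the IDR limit. A pooled candidate lay at all 7 ubiquitous beta genes and at 4 of 7 alpha genes, beside 46.7% of all protein-coding genes. In replicates 1, 2 and 3 the beta genes gave 5, 7 and 5 and the alpha genes 5, 5 and 3, so replicate 1 did not separate them. Prosbeta3 (FBgn0026380), a beta-ring gene at 9005313 to 9006226 on the minus strand of arm 3R, was the strongest at 178.4, rank 3591. Its replicates gave 41.1, 71.6 and 69.4, at ranks 5955, 4210 and 2818, and replicate 3 alone placed it among its strongest entries. Prosalpha6 (FBgn0250843), an alpha-ring gene at 10221351 to 10222546 on the plus strand of arm 2L, followed at 174.0, rank 3741, with 38.6, 100.5 and 46.8 in the replicates and replicate 2 alone above its limit.

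The promoters of these strongest core genes are shown because they lie just outside the IDR list, again 5′ to 3′ on the gene's strand and outside annotated UTRs. Capitals mark matches to the motifs searched. They are Prosbeta3 at chr3R:9006227-9006455 (minus strand) and Prosalpha6 at chr2L:10221217-10221350 (plus strand).
Prosbeta3: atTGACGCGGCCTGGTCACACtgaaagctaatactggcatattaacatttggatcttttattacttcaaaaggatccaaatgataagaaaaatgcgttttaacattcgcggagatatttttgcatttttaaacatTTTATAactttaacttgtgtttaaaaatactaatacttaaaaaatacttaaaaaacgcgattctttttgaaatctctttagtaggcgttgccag
Prosalpha6: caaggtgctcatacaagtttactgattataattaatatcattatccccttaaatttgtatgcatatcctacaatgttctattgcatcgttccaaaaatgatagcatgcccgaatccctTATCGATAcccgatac
In Prosbeta3 the capitals join a pair of overlapping matches to TGACNNNGC, starting 227 and 220 bp upstream, with a match to GGTCACAC that overlaps the nearer of them. The separate capitals are TATAAA read on the other strand, starting 94 bp upstream and holding the summit, 91 bp upstream. In Prosalpha6 they mark TATCGATA, 16 bp upstream. The strongest pooled summit lay 286 bp upstream, in an intron of the neighbour Npc1a, and the weaker of the 2 pooled entries in the window had its summit 4 bp from the start. The replicate signals given for Prosalpha6 came from summits 497, 174 and 464 bp upstream.

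Next came Prosbeta5, which varied more between replicates than Prosbeta3 and Prosalpha6. The mean ratios of those 2 genes were 0.889 ± 0.193 and 0.875 ± 0.313 (SD, n = 3). Prosbeta5, which carries the chymotrypsin-like site, had a pooled signal of 144.1, rank 5202. The replicates gave 16.0, 95.7 and 20.8, at ranks 28458, 2500 and 24527, so replicate 2 stood far above the others, and the mean ratio was 0.592 ± 0.506 (SD, n = 3). An IDR summit of signal 191.4, rank 3183, lay 581 bp upstream of Prosbeta5, just outside the window of 500 bp, on the side of its neighbour dgo, a planar polarity gene. Prosbeta4 followed with a pooled signal of 135.5, rank 5707, and replicate signals of 23.7, 58.8 and 51.6. Its mean ratio was 0.645 ± 0.212 (SD, n = 3), and no replicate placed it among its strongest entries. Prosbeta1 and Prosbeta2, which carry the caspase-like and trypsin-like sites, ranked 23591 and 23987 and were the weakest of the 24.

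The other core genes in the pooled list were Prosalpha4, Prosbeta6, Prosalpha3, Prosalpha2 and Prosbeta7, at ranks from 5727 to 14811. Prosalpha5 had a candidate in replicate 2 only and Prosalpha7 in replicate 1 only. Prosalpha1 was the only ubiquitous member with no candidate in any list. No 31-base word within 500 bp of its 5′ end occurs once in the genome, and the same holds for its paralogue Prosalpha1R, whose start lies 3093 bp away. The words there have a median of 2 copies. No label says whether reads from such sequence were kept, and its part in the absence of entries was not tested. This count of words was chosen after the lists were read.

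**Figure D3:**
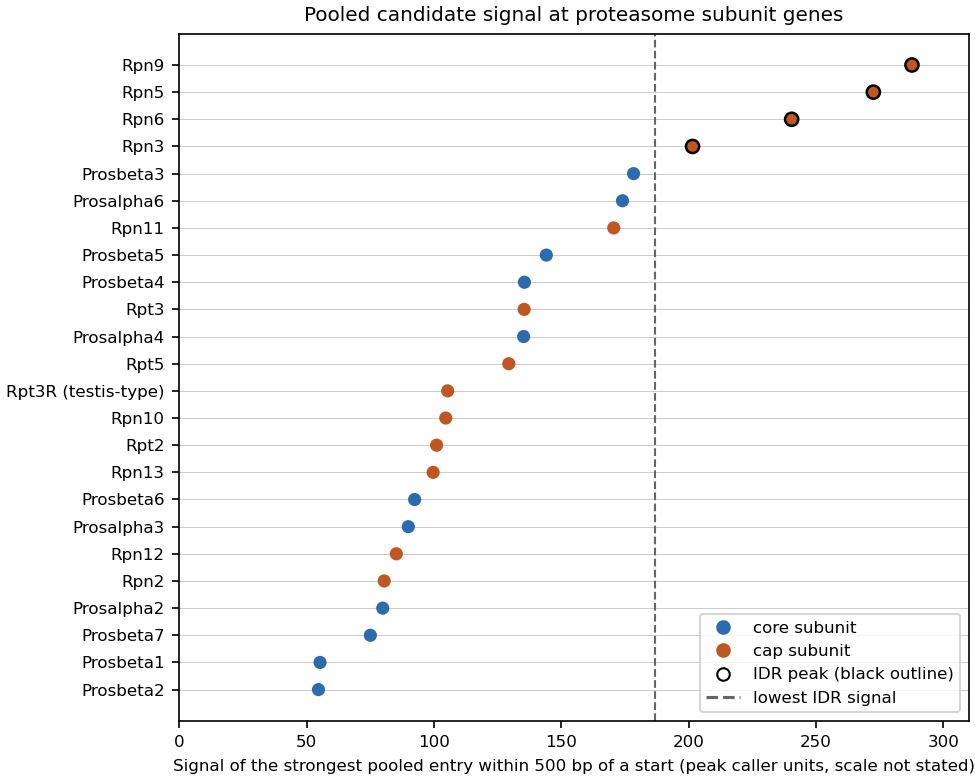
Signal of the strongest pooled entry within 500 bp of a start for the 24 members that have one, coloured by core or cap, with the lowest IDR signal of 186.7 as a dashed line. The 4 outlined entries to the right of the line are Rpn9, Rpn5, Rpn6 and Rpn3, and Prosbeta3 at 178.4 and Prosalpha6 at 174.0 lie just to its left.

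Over the 24 members with a pooled candidate the median rank was 7395.5 and the median signal 117.4, against 5727 and 135.2 over the 6532 protein-coding genes with one. The limit fell between Rpn3 at 201.5 and Prosbeta3 at 178.4. Cytosolic ribosomal protein genes, a comparison set of broadly used genes, had IDR summits at 76 of 93 (81.7%).

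The testis-type paralogues were almost empty of CG10431 candidates, whereas most of their partners had one. The partners are 12 ubiquitous genes, of which 9 had a pooled candidate, and 1 of the 16 paralogues did. The share was 71.9% over the 32 ubiquitous members and 46.7% over all protein-coding genes. The alpha paralogues Prosalpha1R, Prosalpha3T, Prosalpha4T1, Prosalpha4T2 and Prosalpha6T had none in any list. Their partners Prosalpha3, Prosalpha4 and Prosalpha6 ranked 11024, 5727 and 3741, and Prosalpha1 had none. The beta paralogues Prosbeta2R1, Prosbeta4R1, Prosbeta4R2, Prosbeta5R1 and Prosbeta5R2 had none in any list, while Prosbeta2, Prosbeta4 and Prosbeta5 ranked 23987, 5707 and 5202. Prosbeta2R2 had candidates in replicates 2 and 3, at ranks 15837 and 20266.

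Of the cap paralogues, Rpn12R, Rpt4R and Rpt6R had no candidate in any list, beside Rpn12 at rank 12042 and Rpt4 and Rpt6 with no pooled candidate. Rpn13R had a candidate in replicate 1 only, at rank 27281, beside Rpn13 at rank 9387. Rpt3R was the exception, with a pooled signal of 105.4, rank 8628, and replicate signals of 21.8, 36.0 and 39.7, beside its partner Rpt3 at 135.4. Its summit lay 49 bp downstream of the Rpt3R start and 30 bp upstream of the start of Alg12, a glycosyltransferase gene, and those starts are 19 bp apart. The median distance to the nearest pooled summit was 12308.5 bp over the paralogues (49 to 124005 bp) and 143.5 bp over the ubiquitous genes (4 to 36532 bp).

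Summits lay mostly upstream of the members. Of the 24 strongest pooled summits 21 were upstream of the nearest start of the gene (87.5%, against 71.8% of all protein-coding genes with a candidate), at a median position of -97 bp against -85 bp. All 11 core summits and 10 of the 13 cap summits were upstream. The downstream summits were those of Rpn9, Rpt3R and Rpn10. In the replicates the Rpn9 summit lay 199, 198 and 195 bp downstream, within a few bases of the pooled position. The strongest entry at Rpn3 in replicate 2 had its summit 153 bp upstream, close to the pooled position. In replicates 1 and 3 the strongest entries at Rpn3 were different ones, with no summit within 250 bp of the IDR summit. They lay 25 bp downstream and 5 bp upstream of the nearest Rpn3 start.

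**Figure D4:**
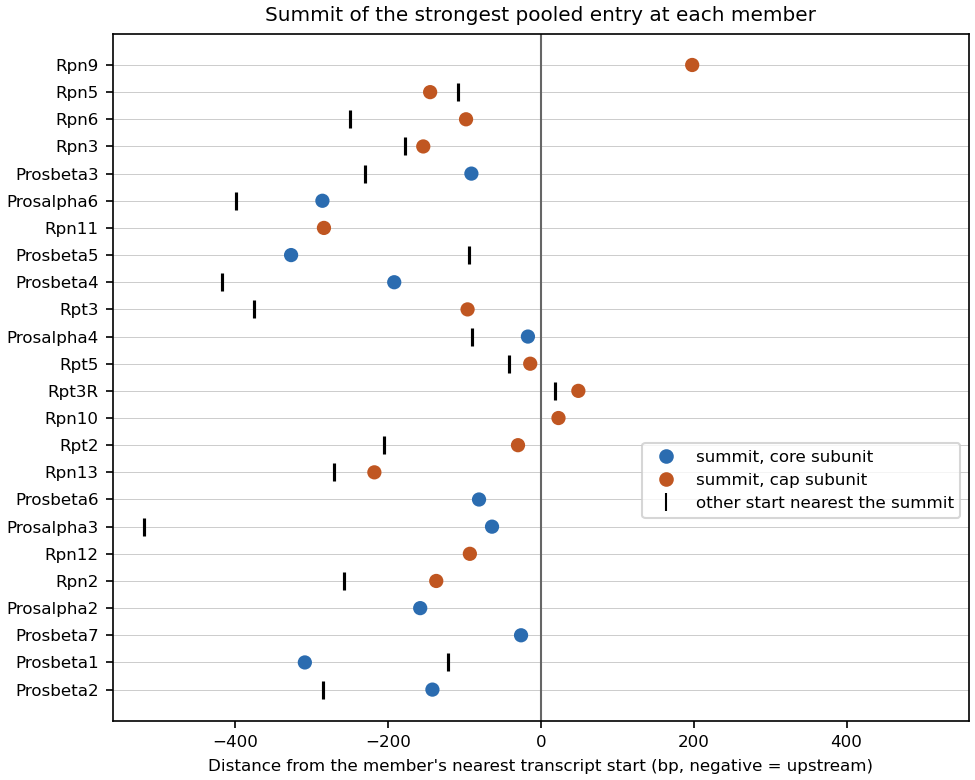
Position of the strongest pooled summit, in bp from the member's nearest transcript start (negative is upstream), for the 24 members with a candidate, in order of signal; ticks mark the other gene's start nearest to the summit, not drawn for Rpn9. Most summits lie to the left of 0. Of the 24, 9 were nearer to another gene's start than to the member's, 9 were nearer to the member's, and 6 had no other protein-coding start within 500 bp.

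Proteasome genes often shared their start region with another gene. Another protein-coding start lay within 500 bp at 24 of 48 members, against 30.8% of all protein-coding genes. All 24 had at least 1 pair of starts in divergent order, as did 3818 of 4314 protein-coding genes with a shared region. Sharing was found at 21 of 32 ubiquitous genes (65.6%) and 3 of 16 testis-type paralogues (18.8%). Of the 24 sharing members 17 had a pooled candidate (70.8%, against 65.3% of all protein-coding genes with a shared region) and 4 an IDR summit. Of the 24 without a shared region 7 had a candidate (29.2%, against 38.4%) and none an IDR summit. Over all protein-coding genes an IDR summit lay at 26.8% of those with a shared region and 9.49% of the others, so an IDR summit was more frequent at shared regions in general. Among members with a shared region a pooled candidate lay at 16 of 21 ubiquitous genes (76.2%) and 1 of 3 testis-type paralogues, and among the others at 7 of 11 (63.6%) and 0 of 13.

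Promoters of 300 bases, from 250 before to 50 after the gene's 5′ end, were searched on both strands for 6 motifs that may overlap. TATCGATA, the DNA replication-related element (DRE) bound by the factor Dref, was found at 12 of 48 members (25.0%), against 9.36% of 13968 promoters. All 12 were ubiquitous genes (37.5% of 32), 6 core and 6 cap, and Rpn3 and Rpn9 were the members with an IDR summit among them. TGACNNNGC, the core of the antioxidant response element, matched 6 members (12.5%) against 8.62% of promoters, and none of the 4 with an IDR summit. TACATGG, a word searched because of earlier results of these data, matched Prosalpha6T and Rpn6 alone (4.17% against 1.93%).

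CATCNCTA matched 5 members, all cap genes (10.4% against 6.41%), GGTCACAC 5 (10.4% against 7.69%) and TATAAA 18 (37.5% against 45.8%). In windows reaching 100 bases to either side of the 24 pooled summits the DRE matched 5 members (20.8% against 6.15% of 5200 entries), namely Prosalpha3, Prosbeta6, Rpn13, Rpn3 and Rpt5. The 5200 are the pooled entries that were the strongest within 500 bp of a start of some protein-coding gene, each counted once. Member promoters had a median G+C content of 33.2%, against 38% over all promoters. Base composition changes how often such words occur, and its part in these shares was not tested.

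The other genes of the pathway, 21 of the 22 listed that matched a symbol or synonym, had IDR summits at 4 (19.0%, against 14.8% of all genes) and pooled candidates at 16 (76.2%, against 46.7%). Keap1, the inhibitor of Cap-n-collar, was the strongest, with a pooled signal of 366.4, rank 995, and 124.3, 148.9 and 96.1 in the replicates, its summit 32 bp upstream. Ubi-p63E, a polyubiquitin gene, gave 275.9 pooled, rank 1707, and 66.0, 118.4 and 109.6 in the replicates, 15 bp upstream. Both lay among the strongest entries of all 3 replicates and above every core gene in the pooled list.

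Ufd1, a cofactor of the segregase TER94, gave 202.1 pooled, rank 2894, and 39.2, 71.0 and 85.7 in the replicates. The gene of the Cap-n-collar partner maf-S gave 190.7, rank 3197, close to the limit, and 57.0, 82.1 and 51.8. Each of these was among the strongest entries of 1 replicate. The maf-S summit lay 199 bp upstream of its start and nearer to the start of rig, at 96 bp. At cnc, which encodes Cap-n-collar itself, the pooled entry ranked 14702, and replicate 1 alone placed a candidate of the window among its strongest entries, at rank 2858.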

How the data were processed

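The material was 3 biological replicates of 1 group, so no groups were compared and no test was made. Genes, lists and motifs were chosen with earlier results of these data known. Of what the authors deposited, peak lists were used: 1 candidate list per replicate, 1 called on the pooled replicates and 1 IDR list from the pooled replicates. The authors' entries hold a peak signal, the −log10 of a q-value and a summit offset, taken as deposited. The build is dm6, per the labels. The aligner was not given in the sources used here, nor was the peak caller. Read depth is unknown, so intervals that need it were left out. Per the labels, chromatin was sheared to 200 to 800 bp. The control shared by the replicates was not analysed here.

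Transcript starts came from Ensembl release 115 on the same assembly, and all 48 members had equal coordinates in RefSeq. A summit within 500 bp of any start of a gene was assigned to it, so 1 summit could count for several genes. The strongest entry gave a gene's signal and rank. Replicates were compared by rank, by their 3314 strongest entries, and by signal divided by the signal at rank 3314 of the same list, with mean ± SD over 3 replicates. These values measure spread between replicates of 1 line. Full values were given for members with an IDR summit and the 6 strongest others. Alternatives were other windows and start definitions, interval overlap, stricter IDR subsets, other numbers of strongest entries, a replicate left out, nearest gene only, and summit windows for motifs. Sequences were read from the RefSeq copy of dm6. Some results on neighbouring genes are not reported here. The counting steps were tested on simulated data. Python 3.11.15, pandas 2.3.3, numpy 2.4.6 and matplotlib 3.10.9 were used.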

Additional observations from a re-analysis of the deposited data

How the results depend on the processing

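The main count was 4 of 48 members with an IDR summit (8.33%, against 14.8% of all protein-coding genes). It was 4 with a window of 250 bp (against 11.9%) and 5 at 1000 bp (against 17.3%). Where the peak interval had to cover a start it was also 4, against 9.82%, so the members' share was then nearer the background. With gene 5′ ends only it was 3 (against 12.9%). Where the peak had to recur in all replicates it was 3 (against 9.14%). Leaving out a replicate gave 3 each time, without Rpn3, for all members, cap genes and ubiquitous genes; it only filtered the deposited IDR list. With the stronger part of the IDR list (1657 peaks) the count was 1 (Rpn9), against 7.80% of all protein-coding genes. With each summit given to its nearest gene alone it was 1 (Rpn6), against 11.3%. Both counts were the same for all members, cap and ubiquitous genes. By construction these settings use fewer peaks or assignments. Core genes stayed at 0 except at 1000 bp, where Prosbeta5 made 1, and testis-type genes stayed at 0 in every alternative run. Pooled candidates lay at 24 of 48 members in the main setting, against 46.7% of all protein-coding genes. They lay at 21 where the interval had to cover a start (against 35.1%) and at 22 with 250 bp (against 38.5%). With gene 5′ ends only they lay at 23 (against 44.4%), and with 1000 bp at 26 (against 52.5%). The background share thus moved with the setting. The mean number of members among a replicate's strongest entries was 0.667 with 1657 entries (1.39%, against 7.96% of all protein-coding genes). With 6628 entries it was 11.3 (23.6%, near the 25.2% of all genes). With a replicate left out it was 3.5 to 5 of 48, against 14.8% to 15.2% of all protein-coding genes. Motifs were also searched in windows reaching 100 bases to either side of the summits of 24 members, fewer sequences than the 48 promoters. The background was the 5200 pooled entries that were the strongest at some protein-coding gene, each counted once. Matches were 5 for TATCGATA (20.8% against 6.15%) and 3 for GGTCACAC (12.5% against 5.42%), above the background as in promoters. TATAAA, below it in promoters, was above it with 9 (37.5% against 30.9%), and TACATGG with 0 (against 2.73%), TGACNNNGC with 1 (4.17% against 5.56%) and CATCNCTA with 1 (4.17% against 4.69%), above it in promoters, were below it; the cause was not tested. No paired analysis was possible because the samples form 1 group. Without read depth, a member with no entry cannot be called unbound.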
